A study of Homo sapiens with 8 samples.

Results

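Dual-specificity phosphatases (DUSPs) remove phosphate from proteins, and many of them switch off mitogen-activated protein kinases (MAPKs). The values of 10 DUSP genes, DUSP1, DUSP2, DUSP4, DUSP5, DUSP6, DUSP7, DUSP8, DUSP10, DUSP14 and DUSP16, taken by symbol from the deposited table, were described in HT29 cells, a human colorectal cancer line with the V600E form of BRAF. All 10 were among the 38148 genes of the deposited table, and 9 of the 10 were among the 14219 genes tested. A gene was tested where the mean of its log2 values was at least that of 1 RPM (reads scaled to a common library size). Gene coordinates are those of the table (GRCh38). HT29 cells were left untreated or were given selumetinib, an inhibitor of MEK, at 1 μM for 24 h. All cells were fixed with glyoxal and sorted by staining for the G2 cyclin CCNB1 into a negative and a positive fraction, and poly(A) RNA was sequenced. Treatment and fraction gave 4 groups, each with 2 libraries of the same line. The labels do not say whether these came from separate cultures, so p-values measure only the spread between these libraries, which may be technical.

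The submitted labels contradict each other. The sample titles and the growth medium label give every library the opposite treatment from the short description, and the titles also give it the opposite fraction. Groups here follow the descriptions, as do the table's column names. Were the titles right, the responses of the fractions would change places with opposite sign, and so would the fraction differences of the treatments, while the difference between the responses would keep its value. The deposited log2 value, the log2 of reads scaled to the depth of the library, was for CCNB1 mRNA 11.66 and 12.01 in the untreated libraries called negative and 13.79 and 14.05 in those called positive. With selumetinib it was 7.92 and 7.22 in negative and 12.76 and 12.53 in positive libraries. In both treatments CCNB1 mRNA was thus higher in the libraries that the descriptions call positive and the titles negative. ETV4, an ETS transcription factor and output gene of ERK signalling, was lower in the libraries that the descriptions call treated and the titles untreated. Its log2 difference was -3.10 in the negative and -2.34 in the positive fraction. ETV4 was picked from these data as the most lowered of 17 tested ERK output genes in the negative fraction. Of these genes, 12 were lower and 4 higher there at a limma adjusted p under 0.05, with EPHA4 highest at 4.11. In the positive fraction 12 were lower and 3 higher.

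Library depth was 12696860 to 23916160 reads on genes. All 7 colon epithelium markers had reads in every library, with a summed 9982 to 10960 RPM in untreated and 4120 to 7752 RPM in treated libraries. Most of this sum was KRT8 and KRT18, which were lower in every treated library. So was EPCAM, with log2 values of 14.06 to 14.45 untreated and 12.84 to 13.37 treated. Those of KRT20 overlapped (11.99 to 12.32 untreated, 11.21 to 12.70 treated). CDH1 (12.05 to 12.24 untreated, 12.31 to 12.51 treated), VIL1 (11.33 to 11.64, 11.90 to 12.36) and CDX2 (5.65 to 5.92, 6.49 to 7.26) were higher in every treated library. Fibroblast, leukocyte and endothelium lists summed to between 11 and 114 reads per library. The fibroblast list stood at 0.685 to 1.09 RPM in untreated and 1.56 to 5.36 RPM in treated libraries, with reads on 1 to 4 of its 5 genes. Most of these reads were on COL1A1 (6 to 24 in untreated and 20 to 107 in treated libraries). The exception was untreated negative library 2, where COL1A1 had 6 of 13. The sum of the leukocyte list went the other way, at 1.56 to 2.58 RPM in untreated libraries and below that range in every treated one. This fall was that of CD14, with 34 to 55 reads in untreated and 4 to 12 in treated libraries. PTPRC of the same list had 0 to 4 and 4 to 11 reads. Genes of G2 and mitosis (10 of 10 with reads) summed to 1035 to 1210 RPM in untreated negative, 4812 to 5340 in untreated positive, 101 to 141 in treated negative and 3355 to 3412 in treated positive libraries. The share of reads on mitochondrially encoded genes was 4.44% to 7.80% in untreated and 11.9% to 14.8% in treated libraries, and that of the nuclear RNA MALAT1 was 0.303% to 0.386% and 2.01% to 4.42%. The part of these shifts in the results given here was not tested. In sorted bulk samples, fewer cells that express a gene and less RNA per cell cannot be told apart.

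MEK activates the ERK kinases by phosphorylating a threonine and a tyrosine, and a typical MAPK phosphatase binds its kinase through a docking domain and removes both phosphates. DUSP5, DUSP6 and DUSP7 act mainly on ERK, and DUSP5 and DUSP6 are textbook feedback genes whose transcription ERK signalling drives. DUSP1, DUSP2 and DUSP4 are inducible nuclear enzymes with broader specificity, whereas DUSP8, DUSP10 and DUSP16 prefer the stress kinases JNK and p38. DUSP14 is an atypical, small enzyme without the docking domain.

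Promoter sequences from RefSeq (GRCh38.p14) were matched for 8 of the 10 genes, and DUSP4 and DUSP5 had no entry. DUSP10 had a pair of start sites, which made 9 windows of 250 bases before and 50 bases after a start. The ETS motif CCGGAAG, which ERK-responsive ETS factors bind, was in 0 of the 9 windows on either strand, against 10.3% of 35116 windows of all genes, and the AP-1 motif TGANTCA was in 0 of 9 against 7.71%. The cAMP response element (CRE) core TGACG was in 3 of 9 against 24.6%, and in the 250 bases before the start it was in 2 of 9, those of DUSP1 and DUSP8, against 21.2%. In both genes the core occurred on opposite strands with an overlap, so that it formed the whole palindromic element, as in 1.65% of all windows. This last search was added after the matches had been seen. The 250 bases before the start held no core in DUSP2, DUSP6, DUSP7, DUSP10, DUSP14 or DUSP16. In the 300 bases a window of DUSP10 also held the core, from -4 to 0 counted from the start site. A relation of these motifs to the selumetinib responses was not tested. Sequences are shown for DUSP1 and DUSP8, which held the whole element, and for DUSP6, whose window held none of the motifs. Each is written 5′ to 3′ on the strand of the gene, with the CRE core of either strand in capitals.
DUSP1, chr5:172771196-172771445, minus strand: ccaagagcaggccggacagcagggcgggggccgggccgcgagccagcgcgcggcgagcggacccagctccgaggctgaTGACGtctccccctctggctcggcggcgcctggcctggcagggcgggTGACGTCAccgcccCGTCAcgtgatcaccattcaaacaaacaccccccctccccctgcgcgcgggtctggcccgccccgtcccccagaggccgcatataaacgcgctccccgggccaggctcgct
DUSP8, chr11:1572272-1572521, minus strand: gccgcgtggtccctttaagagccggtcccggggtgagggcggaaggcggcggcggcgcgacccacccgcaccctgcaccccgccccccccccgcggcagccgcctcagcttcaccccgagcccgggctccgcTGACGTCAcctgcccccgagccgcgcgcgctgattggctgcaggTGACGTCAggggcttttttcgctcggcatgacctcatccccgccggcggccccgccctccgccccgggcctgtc
DUSP6, chr12:89352502-89352751, minus strand: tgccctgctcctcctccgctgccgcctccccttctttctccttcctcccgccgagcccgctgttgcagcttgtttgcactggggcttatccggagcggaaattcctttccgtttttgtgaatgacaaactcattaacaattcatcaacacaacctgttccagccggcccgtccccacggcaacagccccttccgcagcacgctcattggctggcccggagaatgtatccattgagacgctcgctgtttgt
Counted from the start site, the overlapping cores of DUSP1 ran from -125 to -118, with single cores from -172 to -168 and from -111 to -107. In DUSP8 overlapping cores ran from -118 to -111 and from -74 to -67. A match is a description of letters and not a bound site.

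With selumetinib, mRNA of the ERK-selective phosphatases fell and that of the tested JNK/p38-selective phosphatases rose in CCNB1-negative cells. In that fraction 6 of the 9 tested members fell and 3 rose, all with a Benjamini-Hochberg adjusted p under 0.05 in limma (the threshold for a call). The background was high, since 74.1% of all genes tested were called, 38.2% higher and 35.8% lower. In CCNB1-positive cells 5 of 9 fell, 3 rose and DUSP5 was not called, against 65.3% of all genes called, 38% higher and 27.3% lower. The medians of the log2 differences, selumetinib minus untreated, were -1.75 in negative and -1.06 in positive cells for the 3 ERK-selective genes, and 1.19 and 1.16 for the 2 tested JNK/p38-selective genes. For the inducible nuclear genes they were -1.13 and -1.64. Over all genes tested the medians were 0.05 and 0.17. Other scalings moved these all-gene medians by -0.12 and -0.24 (quantile normalization) or by 0.31 and 0.25 (scaling to nuclear-gene reads other than MALAT1), and no called response of a member changed direction under either. How many of all genes keep treated and untreated libraries apart was not counted, so separations given below cannot be set against all genes.

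**Figure D1:**
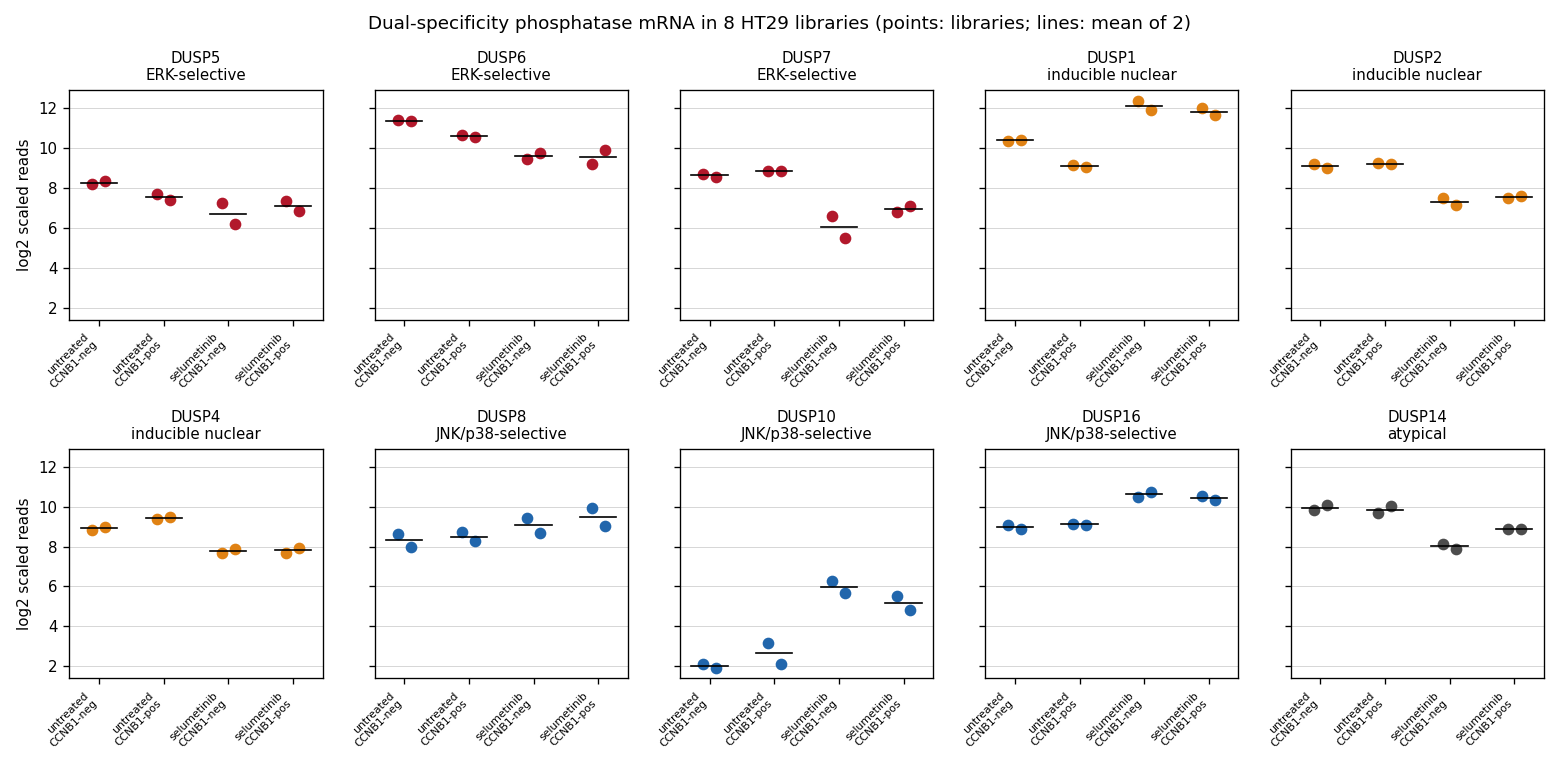
Each panel plots the deposited log2 scaled reads of 1 phosphatase in the 8 libraries, with the 4 groups on the x axis, points for libraries and a line for the mean of 2. Points of DUSP5, DUSP6, DUSP7, DUSP2, DUSP4 and DUSP14 are lower in every treated library than in every untreated one, while those of DUSP1, DUSP16 and DUSP10 are higher. The share of all genes that separate in this way was not counted. Of all genes tested, 74.1% were called in negative and 65.3% in positive cells.

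DUSP6 (chr12:89347235-89352501), a cytoplasmic phosphatase of ERK, was the most abundant ERK-selective member. Its log2 values were 11.38 and 11.33 in untreated negative and 10.66 and 10.56 in untreated positive cells, and with selumetinib 9.46 and 9.73 in negative and 9.21 and 9.89 in positive cells. All 4 treated libraries lay below all untreated ones. The log2 difference was -1.75 ± 0.20 (SE; limma adjusted p = 2.2e-06) in negative cells, a 3.37-fold lower value. In positive cells it was -1.06 ± 0.20 (adjusted p = 0.00033), a 2.09-fold lower value.

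DUSP7 (chr3:52048919-52056571), also a cytoplasmic ERK phosphatase, gave the largest fall of the 10 genes in both fractions. On the log2 scale it stood at 8.69 and 8.56 in untreated negative, 8.84 and 8.83 in untreated positive, 6.58 and 5.46 in treated negative and 6.80 and 7.10 in treated positive cells. Treated and untreated libraries did not overlap, although the treated negative libraries lay further apart than the replicates of any other group of this gene. The log2 difference was -2.61 ± 0.30 (limma adjusted p = 2.7e-06) in negative cells and -1.88 ± 0.30 (adjusted p = 9.2e-05) in positive cells.

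DUSP5 (chr10:110497907-110511533), a nuclear phosphatase that also anchors ERK, was called in negative cells only, unlike the other ERK-selective members. Its log2 values were 8.17 and 8.33 in untreated negative, 7.69 and 7.38 in untreated positive, 7.22 and 6.19 in treated negative and 7.32 and 6.83 in treated positive cells. Negative libraries were lower with selumetinib by a wide margin, whereas in positive cells the gap between the groups was small. The log2 difference was -1.54 ± 0.31 (limma adjusted p = 0.00043) in negative cells, and in positive cells -0.46 (95% interval -1.12 to 0.20, adjusted p = 0.20), which is no call and does not show that the gene was unaffected. Quantile normalization gave a call there, with -1.22 (adjusted p = 0.0057).

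DUSP1 (chr5:172768096-172771195), an immediate-early nuclear phosphatase of JNK, p38 and ERK, rose in both fractions while the other inducible nuclear genes fell. The log2 values of DUSP1 were 10.35 and 10.40 in untreated negative, 9.15 and 9.04 in untreated positive, 12.35 and 11.87 in treated negative and 11.99 and 11.64 in treated positive cells. The treated libraries lay above all untreated libraries, and untreated positive cells had the lowest values. The rise was 1.74 ± 0.18 on the log2 scale (3.33-fold, limma adjusted p = 9.3e-07) in negative cells and 2.72 ± 0.18 (6.57-fold, adjusted p = 1.0e-07) in positive cells. A noncoding gene on the opposite strand, ENSG00000253736, had 1 to 4 reads in untreated and 12 to 21 reads in treated libraries. DUSP1 itself had 482 to 1206 and 2023 to 3608 reads. The part of that gene in the DUSP1 values was not tested.

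DUSP2 (chr2:96143169-96145440), a nuclear phosphatase best known from lymphocytes, and DUSP4 (chr8:29333064-29350684), a nuclear phosphatase of ERK and JNK, fell in both fractions. The log2 values of DUSP2 were 9.18 and 8.98 in untreated negative, 9.22 and 9.17 in untreated positive, 7.47 and 7.12 in treated negative and 7.48 and 7.60 in treated positive cells. Those of DUSP4 were 8.85 and 8.99, 9.40 and 9.48, 7.68 and 7.89, and 7.65 and 7.95 in the same order. Neither gene overlapped between treatments. DUSP2 differed by -1.79 ± 0.19 in negative and -1.65 ± 0.19 in positive cells (limma adjusted p = 1.4e-06 and 6.7e-06), and DUSP4 by -1.13 ± 0.18 and -1.64 ± 0.18 (adjusted p = 6.7e-05 and 5.2e-06).

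DUSP16 (chr12:12474210-12562383), a phosphatase that shuttles between nucleus and cytoplasm and prefers JNK, rose in both fractions. Its log2 values were 9.10 and 8.88 in untreated negative, 9.13 and 9.08 in untreated positive, 10.49 and 10.73 in treated negative and 10.53 and 10.33 in treated positive cells. Untreated libraries were alike in both fractions and lay below all treated libraries. The log2 difference was 1.62 ± 0.16 (limma adjusted p = 6.2e-07) in negative cells and 1.33 ± 0.16 (adjusted p = 9.0e-06) in positive cells.

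DUSP8 (chr11:1554051-1572271), a phosphatase of JNK and p38 known mainly from brain and heart, was higher with selumetinib by a smaller margin. Log2 values of DUSP8 were 8.63 and 7.99 in untreated negative, 8.71 and 8.26 in untreated positive, 9.43 and 8.68 in treated negative and 9.91 and 9.03 in treated positive cells. Groups did not overlap within a fraction, but in each of the 4 groups the first library was the higher one. The log2 difference was 0.75 ± 0.31 (limma adjusted p = 0.042) in negative and 0.99 ± 0.31 (adjusted p = 0.012) in positive cells. The call in negative cells was lost without untreated library 2 (0.43, adjusted p = 0.29) or treated library 1 (0.37, adjusted p = 0.37), under quantile normalization (0.67, adjusted p = 0.066) and with no filter on low genes (adjusted p = 0.087). In positive cells it was lost without untreated library 2 (0.76, adjusted p = 0.085) or treated library 1 (0.55, adjusted p = 0.17). The antisense gene KRTAP5-AS1, which overlaps DUSP8 on the opposite strand, had 11 to 56 reads in untreated and 138 to 384 reads in treated libraries. Since the strand setting of the counts is not stated, reads of the pair may not be told apart, and their part in the DUSP8 values was not tested.

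DUSP10 (chr1:221701424-221742089), a phosphatase of p38 and JNK, had few reads and was below the filter. The mean of its log2 values was 3.96, against 4.58 for 1 RPM. It had 4 and 3 reads in untreated negative, 9 and 4 in untreated positive, 50 and 30 in treated negative and 41 and 18 in treated positive libraries. Every treated library exceeded every untreated one. The ratio of scaled reads, selumetinib over untreated, was 16.0 (95% counting interval 7.41 to 41.0) in negative cells and 5.70 (3.09 to 11.3) in positive cells, and these intervals cover counting error only. In a limma fit without the filter the log2 differences were 3.96 ± 0.69 (adjusted p = 0.00062) and 2.53 ± 0.69 (adjusted p = 0.014).

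DUSP14 (chr17:37489891-37513501), the atypical member, fell in both fractions. Its log2 values were 9.82 and 10.08 in untreated negative, 9.68 and 10.01 in untreated positive, 8.15 and 7.86 in treated negative and 8.86 and 8.87 in treated positive cells. Treated libraries lay below untreated ones, and the treated negative libraries were lowest. The log2 difference was -1.94 ± 0.18 (limma adjusted p = 3.7e-07) in negative cells and -0.98 ± 0.18 (adjusted p = 0.00031) in positive cells.

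**Figure D2:**
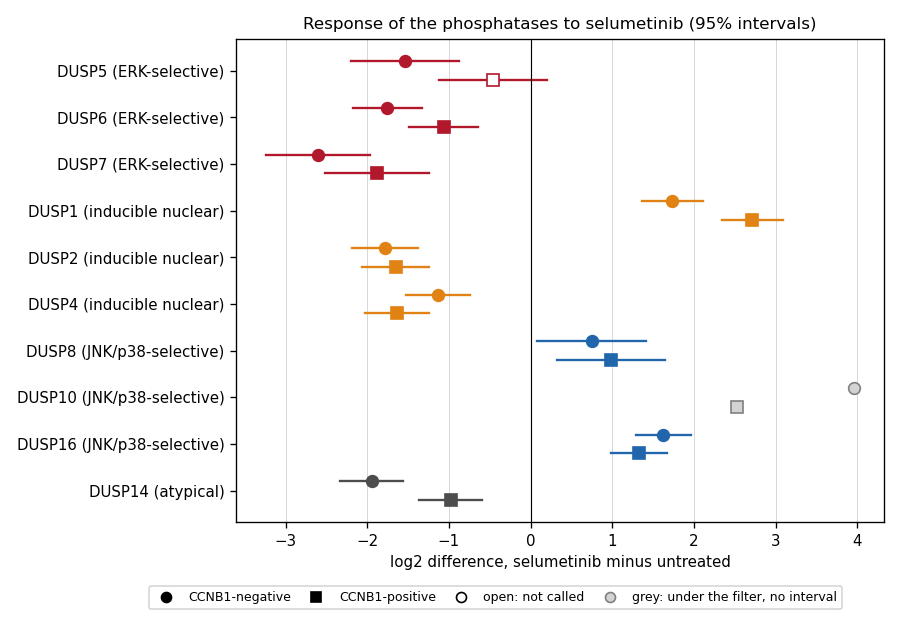
Log2 differences, selumetinib minus untreated, of the 10 phosphatases on the x axis with 95% intervals of the limma fit. Circles stand for CCNB1-negative and squares for CCNB1-positive cells, filled where called, and the grey DUSP10 points come from the fit without the filter and have no interval. DUSP1, DUSP8, DUSP10 and DUSP16 lie right of 0, and the square of DUSP5 is the open one.

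Comparison of the responses between fractions asked whether cells that had reached G2 in drug differed in their phosphatase response from the rest. Of the 9 tested members 2 had a called difference between responses, positive minus negative, against 5.33% of all genes tested (4.99% higher, 0.345% lower). For DUSP1 it was 0.98 (95% interval 0.45 to 1.51, limma adjusted p = 0.035), a larger rise in positive cells. For DUSP14 it was 0.97 (0.42 to 1.51, adjusted p = 0.041), a smaller fall in positive cells. These calls were fragile. The DUSP1 difference stayed called in 7 of 16 other fits, where it ranged from 0.74 to 1.22. It was lost with no filter on low genes, under quantile normalization and under nuclear scaling without MALAT1. The call was also lost without any 1 of the 4 untreated libraries, without treated negative library 2 and without treated positive library 1. The DUSP14 difference stayed called in 9 of 16 (0.80 to 1.13), and it was lost with no filter and under nuclear scaling. It was also lost without untreated negative library 2, untreated positive library 1, treated negative library 2 or either treated positive library. For DUSP5 (1.08, interval 0.15 to 2.01), DUSP6 (0.69, 0.10 to 1.28) and DUSP7 (0.72, -0.18 to 1.62) the adjusted p was 0.18, 0.18 and 0.35, so a smaller fall in positive cells was not called for the ERK-selective genes. A block of the replicate number within treatment, added after seeing the data, called it for DUSP5 (adjusted p = 0.0088) and DUSP6 (adjusted p = 0.0033). Without treated negative library 1, DUSP5 (1.59, adjusted p = 0.020) and DUSP7 (1.28, adjusted p = 0.022) were called, and without treated positive library 1 DUSP6 was (1.03, adjusted p = 0.033).

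Within untreated cells, 1 of 9 tested members differed between fractions, against 2.87% of all genes (1.36% higher, 1.51% lower). DUSP1 was lower in positive than in negative cells by -1.28 (95% interval -1.66 to -0.90, limma adjusted p = 0.00063), with no overlap, and it was called in 17 of 17 other fits. DUSP6 was also lower in both positive libraries, at -0.74 (-1.16 to -0.32), but was not called (adjusted p = 0.064), although limma-voom on recovered reads called it (adjusted p = 0.043), as did the fits without treated positive library 1 or 2 (both adjusted p = 0.021) and the fit of untreated libraries alone (adjusted p = 0.015). DUSP5 (-0.71, -1.37 to -0.05) and DUSP4 (0.52, 0.13 to 0.91) were not called, with adjusted p of 0.32 and 0.18. With the block within treatment all 3 were called, with an adjusted p of 0.00016 for DUSP6, 0.023 for DUSP5 and 0.014 for DUSP4.

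Within treated cells, 2 of 9 tested members were called, both higher in positive cells, against 21.6% of all genes called (13.8% higher, 7.87% lower). DUSP14 differed by 0.86 (95% interval 0.48 to 1.24, limma adjusted p = 0.0043) and was called in 17 of 17 other fits. DUSP7 differed by 0.93 (0.29 to 1.56, adjusted p = 0.039). The DUSP7 difference stayed called in only 9 of 16 other fits. It was not called with no filter on low genes, with the compared groups alone, with limma-voom or under nuclear scaling without MALAT1. Its size was 0.37 without treated negative library 2, 1.08 without treated positive library 1 and 0.78 without treated positive library 2. The difference of DUSP1, -0.30, had an interval of -0.68 to 0.08 that includes 0, but with the block within treatment it was called (adjusted p = 0.015), as was that of DUSP8 (0.42, adjusted p = 0.011). DUSP10 had a ratio of scaled reads, positive over negative, of 0.594 (95% counting interval 0.417 to 0.842), but its log2 difference in the fit without the filter was -0.80 (adjusted p = 0.55).

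**Figure D3:**
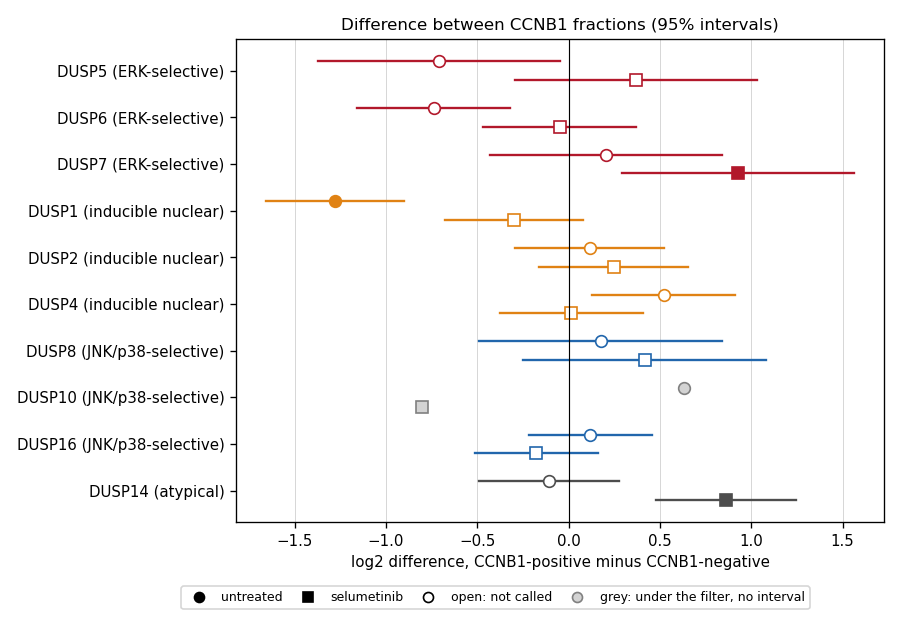
Log2 differences, CCNB1-positive minus CCNB1-negative, of the 10 phosphatases on the x axis with 95% intervals of the limma fit. Circles stand for untreated and squares for selumetinib-treated cells, filled where called. Filled points are the circle of DUSP1 and the squares of DUSP7 and DUSP14.

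Levels of different genes were compared as RPKM, the RPM value per kilobase of merged exons, with the mean of 2 libraries per group. In untreated negative cells DUSP6 (28.3) and DUSP1 (27.6) led and overlapped, followed by DUSP14 (17.0), DUSP2 (11.8) and DUSP5 (5.02). DUSP16 (2.98), DUSP7 (2.92), DUSP4 (2.79) and DUSP8 (2.74) could not be ordered, and DUSP10 was at 0.0600. This order depends on the length used, since with the longest transcript in place of merged exons DUSP7 stood at 5.15 and 4.70, above both libraries of DUSP16, DUSP4 and DUSP8 and overlapping DUSP5. In untreated positive cells DUSP6 (17.0) and DUSP14 (15.9) overlapped at the top, ahead of DUSP2 (12.7) and DUSP1 (11.4).

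With selumetinib, DUSP1 led at 93.3 in negative and 75.3 in positive cells, far above the next genes. In negative cells DUSP16 (9.19) and DUSP6 (8.44) followed and overlapped, and DUSP8 (4.65) overlapped both DUSP14 (4.43) and DUSP2 (3.43), with DUSP14 above DUSP2 in both libraries. DUSP5 (1.83) and DUSP4 (1.27) overlapped, and DUSP10 was at 0.956 and DUSP7 at 0.516. With the longest transcript as length, DUSP7 (1.19 and 0.548) overlapped DUSP10 (1.27 and 0.821). In positive cells DUSP6 (8.34), DUSP16 (8.13), DUSP14 (libraries at 7.95 and 8.05) and DUSP8 (6.27) followed DUSP1 with overlapping values.

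The summed level of the 3 ERK-selective genes was 36.6 and 35.9 in untreated negative, 24.4 and 22.5 in untreated positive, 10.8 and 10.7 in treated negative and 9.87 and 13.2 in treated positive libraries. That of the 3 JNK/p38-selective genes was 6.62 and 4.96, 6.97 and 5.82, 15.4 and 14.2, and 17.5 and 12.4 in the same order. ERK-selective mRNA exceeded JNK/p38-selective mRNA in all 4 untreated libraries and in 1 of 4 treated ones. The log2 ratio of the sums was 2.66 ± 0.27 (SD, n = 2) in untreated negative, 1.88 ± 0.10 in untreated positive, -0.46 ± 0.08 in treated negative and -0.37 ± 0.64 in treated positive cells. In the last group the sign rests on treated positive library 1, since library 2 alone gave 0.08. DUSP6 makes up most of the first sum, and DUSP8 and DUSP16 nearly all of the second.

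**Figure D4:**
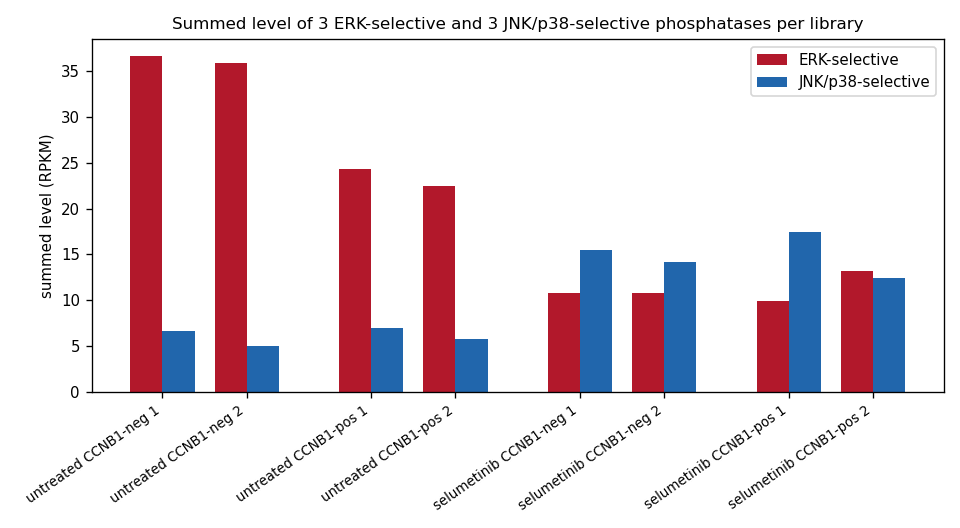
Bars give the summed level, in RPKM, of DUSP5, DUSP6 and DUSP7 (ERK-selective) and of DUSP8, DUSP10 and DUSP16 (JNK/p38-selective) in each of the 8 libraries. Red bars exceed blue bars in the 4 untreated libraries, and in treated libraries the blue bars are the higher ones except in positive library 2 (13.2 against 12.4).

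Other genes of the pathway were counted from lists, to be read against the shares of all genes called higher and lower in negative (38.2% and 35.8%) and positive cells (38% and 27.3%). Of 18 output genes of ERK signalling other than DUSPs, 17 were tested, and 12 fell and 4 rose in negative cells, and 12 fell and 3 rose in positive cells. The log2 difference in negative cells was lowest for ETV4 (-3.10), and highest for EPHA4, an ephrin receptor (4.11). The median log2 differences of this list were -1.14 and -1.29, beside 0.05 and 0.17 over all genes. Of the 15 kinases of the JNK and p38 modules 8 rose and 4 fell in negative cells, and 7 rose and 3 fell in positive cells. Among them MAP2K6, which activates p38, rose by 4.77 and 5.04, whereas MAP2K3, another activator of p38, fell by 1.93 and 1.87. Of the 7 ERK module kinases 3 rose and 1 fell in negative cells, with BRAF at 2.14, and 2 rose and 1 fell in positive cells.

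Beyond the 10 genes, 13 of 19 other dual-specificity phosphatases in the table were tested. In negative cells 3 rose and 5 fell, from SSH2, a phosphatase of cofilin, at 2.80 to DUSP12 at -1.79, and in positive cells 3 rose and 3 fell. Called were thus 8 and 6 of these 13 genes, beside 74.1% and 65.3% of all genes. A list this small cannot show a difference from those shares, which was not tested. The median log2 difference of the 13 genes was -0.34 in negative and 0.09 in positive cells, against -1.54 and -0.98 for the 9 tested members. Of 7 tested MAPK phosphatases of other families 2 rose and 2 fell in each fraction. These 4 of 7 called stand beside the same shares, in a list too small to set against them. PPM1B was at 1.69 and PTPN7 at -2.56 in negative cells. Of 7 docking and scaffold genes 3 rose and 2 fell in negative and 2 rose and 1 fell in positive cells, with the scaffold KSR2 at 2.43 and the ERK anchor PEA15 at -2.30 in negative cells.

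**Figure D5:**
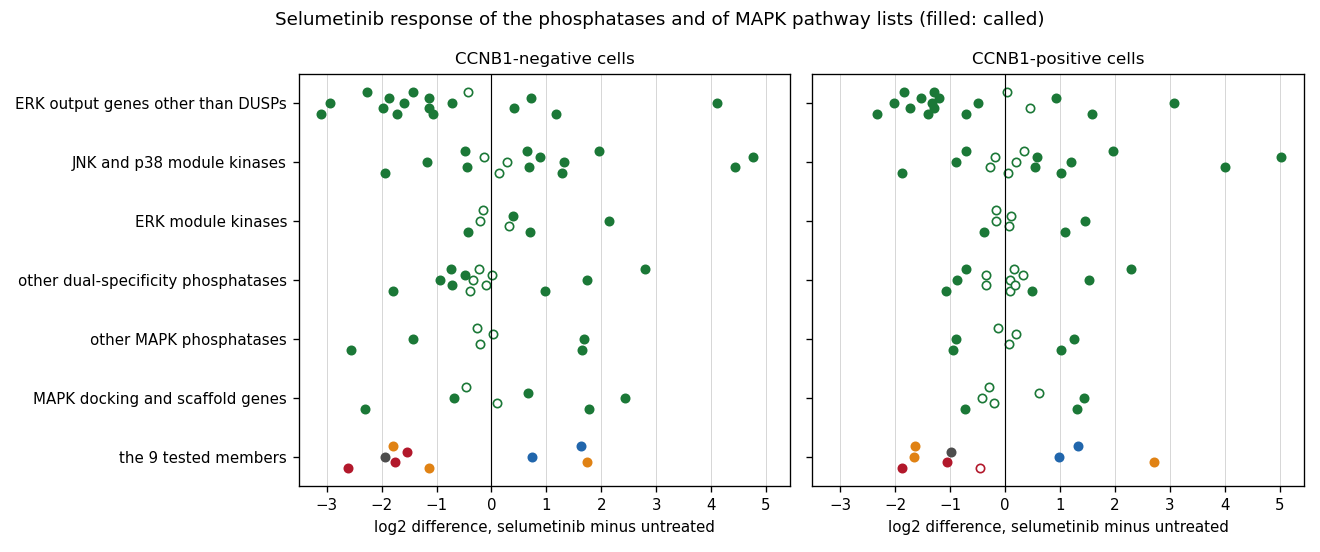
Log2 differences, selumetinib minus untreated, on the x axis for each tested gene of 6 pathway lists and for the 9 tested phosphatases, in CCNB1-negative (left) and CCNB1-positive cells (right). Points are genes, filled where called, and the bottom row has the colours of the phosphatase classes. Most points of the ERK output list lie left of 0 (12 of 17 called lower in both panels), while the other lists spread to both sides.

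The genes most like 3 members were found by Pearson correlation of log2 values over the 8 libraries, which share treatment and fraction and fall apart by treatment. For DUSP6 these were TRIM35 (r = 0.991), TRIM44 (0.988) and TMEM223 (0.985), among 70 genes over 0.95. For DUSP1 they were PNRC1 (0.997), TP53INP1 (0.996) and DEPP1 (0.996), among 475, and for DUSP10 they were PCGF3 (0.995), HIST1H3E (0.994) and INTS3 (0.993), among 1101. The number of genes this close differed widely between members, and likeness over 8 libraries says nothing of shared control.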

How the data were processed

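Poly(A) RNA libraries of glyoxal-fixed, sorted HT29 cells were made with a directional kit. The authors used Trim Galore 0.5.0 for trimming and HISAT2 2.1.0 for alignment to GRCh38, and deposited SeqMonk 1.47.0 log2 values per gene, scaled by total reads. The annotation release and the strand setting of the counts are not given in the sources used here, nor is the filter on multiply mapped reads. The methods name McCoy's medium where the labels name RPMI-1640.

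The deposited log2 values equal whole reads times a constant per library (100% whole within 0.1%), and a gene without a read stands at the log2 of 0.9 reads times that constant. Levels used merged exons of GENCODE models, whose ends match the table for 9 of the 10 genes (not DUSP16). limma 3.58.1 (R 4.3.3) was fitted to the deposited log2 values with a mean-variance trend, 1 coefficient per group over 8 libraries, 5 comparisons, 2-sided tests and Benjamini-Hochberg adjustment over 14219 genes. These were the genes with a mean log2 value over the 8 libraries of at least 4.58, the log2 of 1 RPM. The code of the fit was run on simulated data with planted changes and independent libraries. Deposited libraries deviated in part alike within a treatment, so that run does not bear on the calls given here. Python 3.11.15 was used for summaries. Depth of 12696860 to 23916160 reads leaves the largest counting error for DUSP10, whose intervals are exact binomial ones on pooled reads of a group. DUSP7 (26 reads) and DUSP5 (43 reads) were also low in a treated negative library. Alternatives were a threshold of 0.01, no filter, quantile normalization, a filter at 10 RPM, 0.1 RPM added before the log, a replicate block, fits of the compared groups alone, leaving out each library, and limma-voom on recovered reads. Scaling to nuclear genes without MALAT1 and a block within treatment were added after seeing the data.

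Named genes were all 10 members, the most raised and most lowered called gene of each pathway list in CCNB1-negative cells, and the 3 genes most like DUSP6, DUSP1 and DUSP10. Members and lists were chosen with earlier results of these data known, so no test was made over a list. Replicates differed by more than counting error (chi-square of 17.3 to 33.5 per gene), so none was counted as a copy. Protein sequences are not used here. The most lowered gene of the ERK module list is not reported here.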

Additional observations from a re-analysis of the deposited data

Results flagged for a closer look

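The rise of DUSP1 with selumetinib was larger in CCNB1-positive than in CCNB1-negative cells by 0.98 on the log2 scale, and the fall of DUSP14 was smaller there by 0.97. Each was singled out because the interaction term of the limma fit passed the threshold (adjusted p = 0.035 and 0.041, 2 libraries per group). This term tests the difference between the responses itself. Both calls were fragile, and both were lost with no filter on low genes and under nuclear scaling without MALAT1. The untreated fractions already differed for DUSP1 (-1.28) and not detectably for DUSP14 (-0.11, 95% interval -0.49 to 0.28), while in treated cells the fractions differed by -0.30 and 0.86.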

How the results depend on the processing

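Of 778 values of single members under other settings, 710 kept direction and side of the threshold, 34 lost a call, 18 gained one and 16 changed sign. Both responses kept their calls under every alternative in which the gene was tested (DUSP7 was not at 10 RPM) for DUSP1, DUSP2, DUSP4, DUSP6, DUSP7, DUSP14 and DUSP16 at an adjusted p of 0.05. Median log2 differences under quantile normalization and under nuclear scaling without MALAT1 were -1.41 and -0.82 for inducible nuclear genes in negative cells, -2.01 and -1.39 in positive cells, and -1.22 and -0.813 for ERK-selective genes in positive cells (-1.40 to -0.72 leaving out a library). Between untreated fractions 408 genes were called, 217 at p of 0.01, 259 with no filter, 254 under quantile normalization and 224 to 455 leaving out a library, and 1 member became 2 with the compared groups alone or limma-voom (1 to 2 leaving out a library). Between treated fractions 3077 genes were called, 1338 at 0.01 and 1156 to 4279 leaving out a library, and 2 members became 1 at 0.01, with no filter, at 10 RPM, with the compared groups alone, with limma-voom and under nuclear scaling (1 to 3 leaving out a library). For the difference between responses 758 genes were called, 426 at 0.01, 496 with no filter and 489 to 1806 leaving out a library, and 2 members became 0 at 0.01, with no filter and under nuclear scaling, and 1 under quantile normalization (0 to 4 leaving out a library). The cause of these changes was not tested. Log2 differences that changed sign, none of them called in the main comparison, were DUSP4 between treated fractions under quantile normalization (-0.080) and nuclear scaling (-0.060), and, leaving out a library, DUSP4 (-0.13 to 0.16), DUSP5 (-0.15 to 0.88, called at its highest), DUSP6 (-0.39 to 0.29) and DUSP8 (-0.023 to 0.85) there, DUSP8 (-0.14 to 0.50) and DUSP14 (-0.27 to 0.060) between untreated fractions, and DUSP2 (-0.044 to 0.31) and DUSP8 (-0.20 to 0.68) for the difference between responses. The log2 level ratio of ERK-selective to JNK/p38-selective genes was 2.01 with transcript length and 1.77 under quantile normalization in untreated positive cells, -0.54 under quantile normalization in treated negative cells, and -0.82 to 0.084 in treated positive cells leaving out a library. In fits that leave out a library the lone sample is assumed to vary like the other groups.

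Same-numbered libraries deviated in part alike within a treatment but not across treatments. Their deviations correlated at 0.35 between untreated and 0.43 between treated fractions but at -0.09 to 0.08 across treatments. The main fit has no term for this, and whether same-numbered fractions came from 1 culture was not tested. With a replicate block 10890 and 9764 genes were called for the responses in negative and positive cells, 500 and 3741 between untreated and treated fractions and 883 for the difference between responses, with 9, 8, 1, 2 and 2 members. A block within treatment, added after seeing the data, called 1923, 6671 and 3850 genes in the last 3 comparisons, with 4 members in each. With 2 libraries per group and few reads, small differences of DUSP10 were not detectable.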
